A study of Homo sapiens with 14 samples.

Results

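The HIPK3 gene gave 3 of the 11227 circular RNAs (circRNAs) listed for HepG2 cells and their fractions, and 1 of these 3 carried almost all of the gene's back-splice reads. The entries were taken as those with both ends inside the RefSeq span of HIPK3, which runs on hg38 from 33256672 to 33357023 on chromosome 11. HepG2 is an established human liver cancer line. Total RNA was taken from nucleus, ribosome, cytosol, exosome, cytoplasm and whole cell, with 2 libraries each, so that 12 libraries were compared. No treatment, genotype or age is named, and all groups are the same cell line. Ribosomal RNA was removed from all of these RNAs other than the exosomal ones, per the labels' protocols. How the fractions were isolated, and whether the 2 libraries of a fraction came from separate cultures, is not given in the sources used here, so p-values measure the spread between these libraries, which may be technical. The 2 mitochondrial samples were not analysed here.

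CircRNAs form when the end of an exon is joined to the start of the same or an earlier exon, a reaction called back-splicing. The ring has no free ends and resists exonucleases, which lets it accumulate, and most exonic circRNAs are known to reside outside the nucleus. HIPK3 encodes a serine/threonine kinase of the homeodomain-interacting protein kinase family. Its circRNA, known from published work to consist of the large second exon of the gene, is abundant in many human tissues and has been reported to bind microRNAs.

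The libraries held 2301 to 72415 circRNA reads. The exosomal libraries (2304 and 2301 reads) and the nuclear ones (7727 and 7235) were the shallowest. Solving the RPTM values of each fraction against the reads of its 2 libraries gave implied library totals of 65621592 to 104135791 reads. Of 11 hepatocyte marker genes, 5 gave at least 1 circRNA (ALB, APOB, FGA, FGG and APOH) and 3 of them did so in the whole-cell table. The tables hold circRNAs alone, so markers of the compartments could not be read from them.

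The main entry lies at chr11:33286413-33287511 and spans 1099 bases. Its start is 29741 bases downstream of the first of 3 RefSeq transcription starts of HIPK3, which is on the plus strand, and 28122 bases downstream of the last. It had 2076 reads over the 12 libraries and was listed by both callers in all 6 tables. Of the 4679 circRNAs that both callers listed in at least 1 table, 16.7% had a shorter genomic span, and the median span was 5843 bases. No other entry ended at the same base, and 1 other entry began at the same base.

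That longer entry runs from 33286413 to 33328633, a genomic span of 42221 bases. It had 4 and 1 reads in the ribosome libraries and 2 and 2 in the cytoplasm libraries, where it averaged 0.277 ± 0.192 and 0.225 ± 0.0439 RPTM (reads per 10000000 library reads, SD, n = 2 each). The third entry, from 33328510 to 33341686, had 1 read in each cytoplasm library and was listed in no other table. The third entry begins 124 bases before the longer one ends, counting both end bases. Only the caller headed CIRC reported these 2 entries, and neither entered the tests below.

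**Figure D1:**
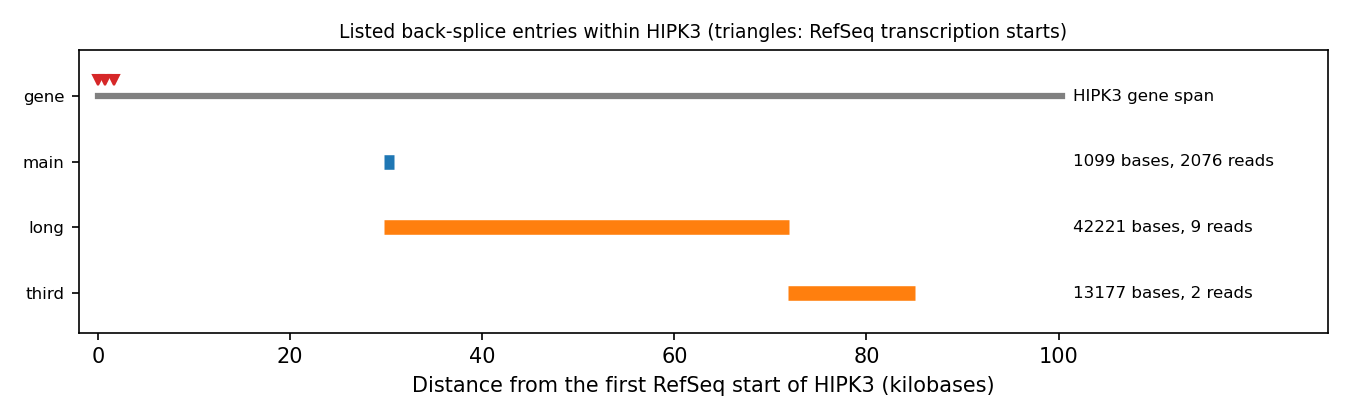
Position of the 3 HIPK3 entries along the gene, in kilobases from its first RefSeq start, with the genomic span and the reads summed over 12 libraries written at the right. The main entry of 1099 bases carries 2076 reads, and the others carry 9 and 2.

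An entry is present in a table only where both libraries of the fraction had a read, so an unlisted entry is not a measured 0. The longer entry made up 5 of 209 reads of the pair in the ribosome fraction (2.39%, exact Clopper-Pearson 95% interval 0.781 to 5.49) and 4 of 535 in the cytoplasm (0.748%, 0.204 to 1.90). These intervals overlap, and like all intervals here they cover counting error only. The ratio of the longer to the main entry in the cytoplasm may be too high, since listing needs a read in both libraries. At that ratio, the longer one would have had 3.07 and 3.03 reads in the cytosol libraries. It would have had 2.0 and 1.48 reads in the cell libraries and fewer than 1 in each nuclear and exosomal library. At that ratio its presence in the nucleus and in exosomes would not have been detectable at this depth. Whether the ratio differs in these fractions was not tested.

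The main circRNA thus held 99.5% of the 2087 HIPK3 back-splice reads. It was the only HIPK3 entry in the nucleus, cytosol, exosome and cell tables, and its share was lowest, at 96.5%, in ribosome replicate 1. A set of 35 host genes, HIPK3 included, had at least 2 entries and at least 1043.5 reads, a minimum set from the HIPK3 read number. These hosts had a median of 8 entries, against 3 for HIPK3, and hosts with 1 entry were left out. Among the 35, the leading circRNA held a median of 71.1% of its host's reads. The share was above that of HIPK3 in 1 host, ALB, whose leading entry came from the caller headed Ciri alone. CDYL and ZKSCAN1 followed HIPK3 closely, each with 99.4%. In read number HIPK3 was exceeded by 11 of 3954 hosts.

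The callers gave similar numbers for the main junction. Ciri counted 2090 reads and CIRC 2056 over all libraries. They gave equal numbers in 3 libraries, and Ciri counted more in the other 9, by at most 11 reads. The lowest CIRC count relative to Ciri was 86.4%, in nuclear replicate 2, where the callers had 22 and 19 reads. The mean of the callers, rounded to a whole number, is used from here on.

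In reads per library, the HIPK3 circRNA had 10 and 21 reads in the nucleus, 109 and 95 in ribosome libraries, 408 and 402 in the cytosol, 23 and 15 in exosomes, 294 and 237 in the cytoplasm and 266 and 196 in cells. The levels were 1.15 and 2.67 RPTM in nuclear libraries, 11.3 and 13.4 in ribosome libraries, and 43.2 and 38.6 in cytosol libraries. They were 3.50 and 1.5 RPTM in exosomes, 28.4 and 30.3 in the cytoplasm, and 28.4 and 25.4 in cells. Cytosol was highest, followed by cytoplasm, cell, ribosome, exosome and nucleus.

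Averaged, the levels were 1.91 ± 1.07 RPTM in the nucleus, 12.3 ± 1.53 in ribosome libraries, 40.9 ± 3.26 in cytosol libraries, 2.50 ± 1.42 in exosomes, 29.4 ± 1.31 in the cytoplasm and 26.9 ± 2.09 in cells (SD, n = 2 each). Of the 5 neighbouring pairs in this order, only exosome and nucleus had libraries that overlapped. Cytoplasm and cell were apart by the smallest margin, since the lowest cytoplasm library and the highest cell library both round to 28.4 RPTM. For 2 and 2 libraries the smallest p of a two-sided exact permutation test is 0.333. A lower level in a fraction and a larger amount of other RNA in it cannot be told apart on this scale.

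The order changed when the HIPK3 circRNA was taken as a share of all circRNA reads of its library. These reads include the entries of ALB (40643 reads) and FGG (17646 reads, with no entry in the whole-cell table). How the shares move without these entries was not tested. The shares were 0.129% and 0.290% in the nucleus, 0.397% and 0.483% in ribosome libraries, 0.672% and 0.676% in the cytosol, 0.998% and 0.652% in exosomes, 0.406% and 0.400% in the cytoplasm, and 0.503% and 0.470% in cells. Exosomes then came first by their mean of 0.825% ± 0.245, but their libraries lay on either side of both cytosol libraries (0.674% ± 0.00269; SD, n = 2 each). Ribosome libraries overlapped both those of the cytoplasm and those of cells. The nucleus was last, with both libraries below all others.

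The exact 95% interval of the share ran from 0.634% to 1.49% in exosome replicate 1 and from 0.365% to 1.07% in exosome replicate 2, against 0.609% to 0.740% in cytosol replicate 1. The intervals of the 2 libraries overlapped in all 6 fractions. The exosomal intervals, resting on 23 and 15 reads, were the widest.

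Another measure restricts both sides to the 168 circRNAs that all 6 tables listed and that both callers listed in at least 1. Within these, the HIPK3 circRNA held 0.449% and 1.01% of reads in the nucleus, 1.60% and 2.23% in ribosome libraries, 3.34% and 3.66% in the cytosol, 1.90% and 1.93% in exosomes, 2.09% and 2.08% in the cytoplasm, and 2.44% and 2.37% in cells. Cytosol was highest and nucleus lowest with no overlap, while both exosome libraries lay below both cell libraries. Listing in the shallow exosome and nuclear tables decides which circRNAs enter this set, so it leans towards circRNAs high in those fractions. These 168 circRNAs held 33.8% and 52.6% of circRNA reads in the exosome libraries, against 18.5% to 28.8% elsewhere.

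**Figure D2:**
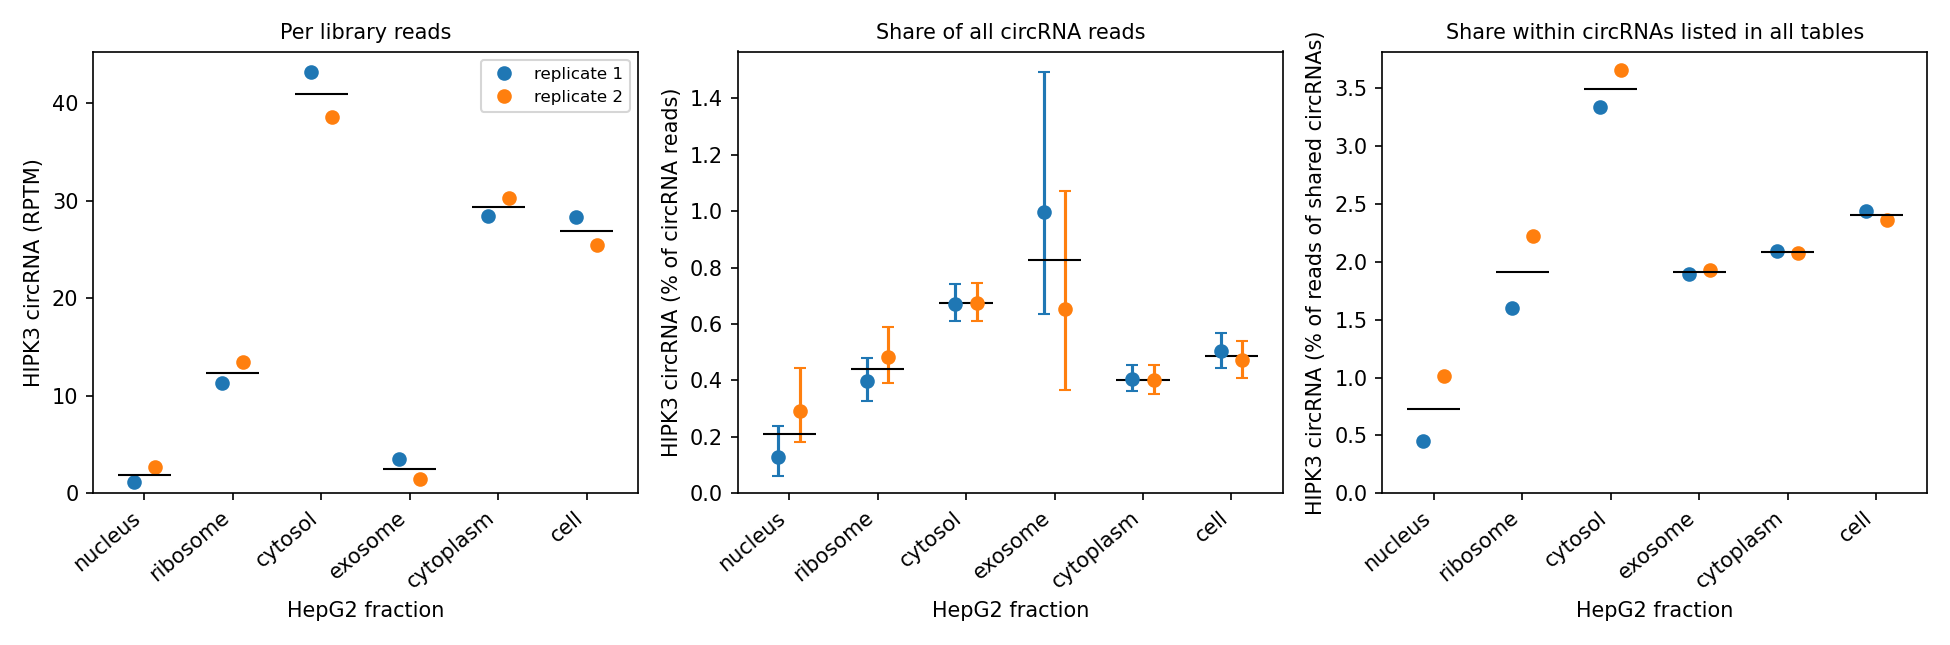
HIPK3 circRNA in each of 12 libraries, by fraction, as RPTM (left), as percent of all circRNA reads with exact 95% intervals (middle) and as percent of the reads of the 168 circRNAs listed in all tables (right). Points are libraries and black lines are means of 2. The nuclear mean is lowest in all 3 panels, though nuclear and exosomal libraries overlap in the left one. Exosomes move up in the middle one, where the interval of replicate 1 reaches 1.49%.

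The rank of the HIPK3 circRNA among circRNAs accepted by both callers was highest in the cytosol. It was at position 3 of 2924 in both cytosol libraries, 6 of 360 in both exosome libraries, 8 of 3732 in both cytoplasm libraries and 5 of 3100 in both cell libraries. In the ribosome libraries it was at positions 11 and 8 of 1847. In the nucleus it was at positions 97 and 27 of 854, the widest difference between replicates, with 10 reads in one library and 21 in the other.

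Differences between fractions were tested in 1 edgeR quasi-likelihood fit over the 12 libraries, with TMM scaling and Benjamini-Hochberg adjustment over the 950 circRNAs that passed a filter on low counts. TMM is a scaling factor that sets the bulk of circRNAs of the libraries level, so a fold change compares the HIPK3 circRNA with other circRNAs. A circRNA was called at an adjusted p under 0.05. The main HIPK3 circRNA was called in 4 of the 6 comparisons, with the direction in 1 of them depending on the scale.

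Nucleus and cytoplasm are the first division of the cell. The HIPK3 circRNA fell in the nucleus relative to the cytoplasm, with a log2 fold change of −1.46 ± 0.33 (SE, edgeR adjusted p = 0.00126). Its RPTM level was 0.0650 times the cytoplasmic one, with single pairs of libraries between 0.0380 and 0.0937, while all circRNA reads together stood at 0.124 times. Both nuclear libraries lay below both cytoplasm libraries in RPTM and in share. In this comparison 33.3% of the tested circRNAs were called lower and 48.2% in either direction. Of the 528 tested circRNAs that both tables listed, 30 had a lower log2 fold change than HIPK3, and the median of the 528 was 0.37. Over all 950 tested circRNAs the median was −0.76. Listing in the shallow nuclear table leaves out circRNAs too low to be read there, so the place of HIPK3 among the 528 depends on that selection. The decrease was called under every alternative and every left-out library tried, with log2 values between −3.95 and −1.07.

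The ribosome fraction was set against the cytosol. The HIPK3 circRNA fell in the ribosome fraction relative to the cytosol, by a log2 fold change of −0.84 ± 0.26 (SE, edgeR adjusted p = 0.00646). The ribosomal RPTM level was 0.302 times the cytosolic one, against 0.462 times for all circRNA reads. Neither RPTM nor share overlapped between the libraries. Of the tested circRNAs, 26.1% were called lower and 52.7% either way. HIPK3 was not at the edge of this comparison, since 182 of 725 circRNAs listed in both tables had a lower log2 fold change, beside a median of 0.17. The ribosomal reads show presence in that fraction and do not tell whether ribosomes translated the ring.

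The cytosol was also set against the cytoplasm. The HIPK3 circRNA rose in the cytosol relative to the cytoplasm by 0.77 ± 0.24 on the log2 scale (SE, edgeR adjusted p = 0.00721). Its RPTM ratio was 1.39, and that of all circRNA reads was 0.832. The share of circRNA reads was 0.674% ± 0.00269 in the cytosol and 0.403% ± 0.00459 in the cytoplasm (SD, n = 2 each), and the libraries did not overlap on any of the 3 measures. A call was common here, with 26.9% of tested circRNAs called higher, 30.9% lower and 57.9% either way. The call was lost with implied library totals as the scale (adjusted p = 0.280), with only these fractions in the fit (adjusted p = 0.0536) and without cytoplasm replicate 1 (edgeR adjusted p = 0.0644), while the direction held. The deposited averages carry up to 15 decimals in the ribosome, cytosol and exosome tables and up to 10 in the others, so a difference between how these tables were written and the difference between fractions cannot be told apart. The same holds for ribosome against cytoplasm and for exosome against cell, for HIPK3 and HIPK2 alike.

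Between ribosome and cytoplasm the HIPK3 circRNA did not pass the test. Its log2 fold change was −0.07 ± 0.26 (SE, edgeR adjusted p = 0.866), where 33.1% of tested circRNAs were called. The RPTM ratio of 0.420 was near that of all circRNA reads, 0.384, and the shares of all circRNA reads overlapped. Among the 1629 circRNAs that both tables listed, the HIPK3 circRNA held 0.657% and 0.849% of reads in ribosome libraries. In the cytoplasm it held 0.906% and 0.898% of them, so on that basis both ribosome libraries lay below both cytoplasm libraries. The set leans towards circRNAs high in the ribosome fraction, the shallower of the pair. Taken per implied library total, the HIPK3 circRNA was lower in the ribosome fraction (−1.25, adjusted p = 0.00499).

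Cytoplasm and whole cell were also close for the HIPK3 circRNA. The log2 fold change was −0.17 ± 0.25 (SE, edgeR adjusted p = 0.884), in a comparison where 3.79% of tested circRNAs were called, 1.58% higher and 2.21% lower. The cytoplasmic RPTM level was 1.09 times that of cells, with single pairs of libraries from 1.0 to 1.19. All circRNA reads together were 1.32 times as high in the cytoplasm, and the share of the HIPK3 circRNA was accordingly 0.827 times that of cells, with no overlap of libraries.

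Exosomes, small vesicles released by cells, were set against whole cells, and here the direction for the HIPK3 circRNA depended on the scale. With TMM it was called lower in exosomes, at −1.04 ± 0.32 (SE, edgeR adjusted p = 0.0144), with 42.0% of tested circRNAs called lower and 46.0% either way. Many of these calls are of circRNAs unlisted in exosomes and entered as 0: the median log2 fold change was −5.17 over all and −0.03 over the 329 that both tables listed, of which 40 were lower than HIPK3. When the fit held only circRNAs that both tables listed, 27 of 295 were called, and without exosome replicate 1 the 437 calls became 51. With the total reads of the tested circRNAs as the scale it stood at 0.12 and did not pass (edgeR adjusted p = 0.755), and as a share of all circRNA reads it was 1.69 times as high in exosomes. With RLE factors, with DESeq2 and with unlisted circRNAs entered at 1 read it was lower but not called, with adjusted p = 0.129, 0.169 and 0.800. The TMM factors were 1.93 and 2.25 in the exosome libraries, against 0.925 and 0.923 in the cell libraries. Replicates differed more in exosomes, with a chi-square per degree of freedom of 5.39 against 1.20 to 2.28 in the other fractions. The fit shares its spread over all fractions, so SE and p for exosome against cell may be too small. With only these 2 fractions in the fit HIPK3 was still called (−0.90, edgeR adjusted p = 0.00724).

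Per implied library total the HIPK3 circRNA was lower in exosomes (log2 −3.49, edgeR adjusted p = 4.2e-10), with a RPTM ratio of 0.0929 to cells against 0.0525 for all circRNA reads. The exosomal libraries were made without ribosomal RNA removal, so this ratio has another denominator, and the preparation and the fraction cannot be told apart. Among 331 circRNAs that both tables listed, the HIPK3 circRNA held 1.35% and 1.29% of reads in exosomes and 2.04% and 1.99% in cells. On that basis both exosome libraries lay below both cell libraries. Listing in the shallow exosome table decides which circRNAs enter this set, so it leans towards circRNAs high in exosomes. How far this selection sets the shares was not tested.

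**Figure D3:**
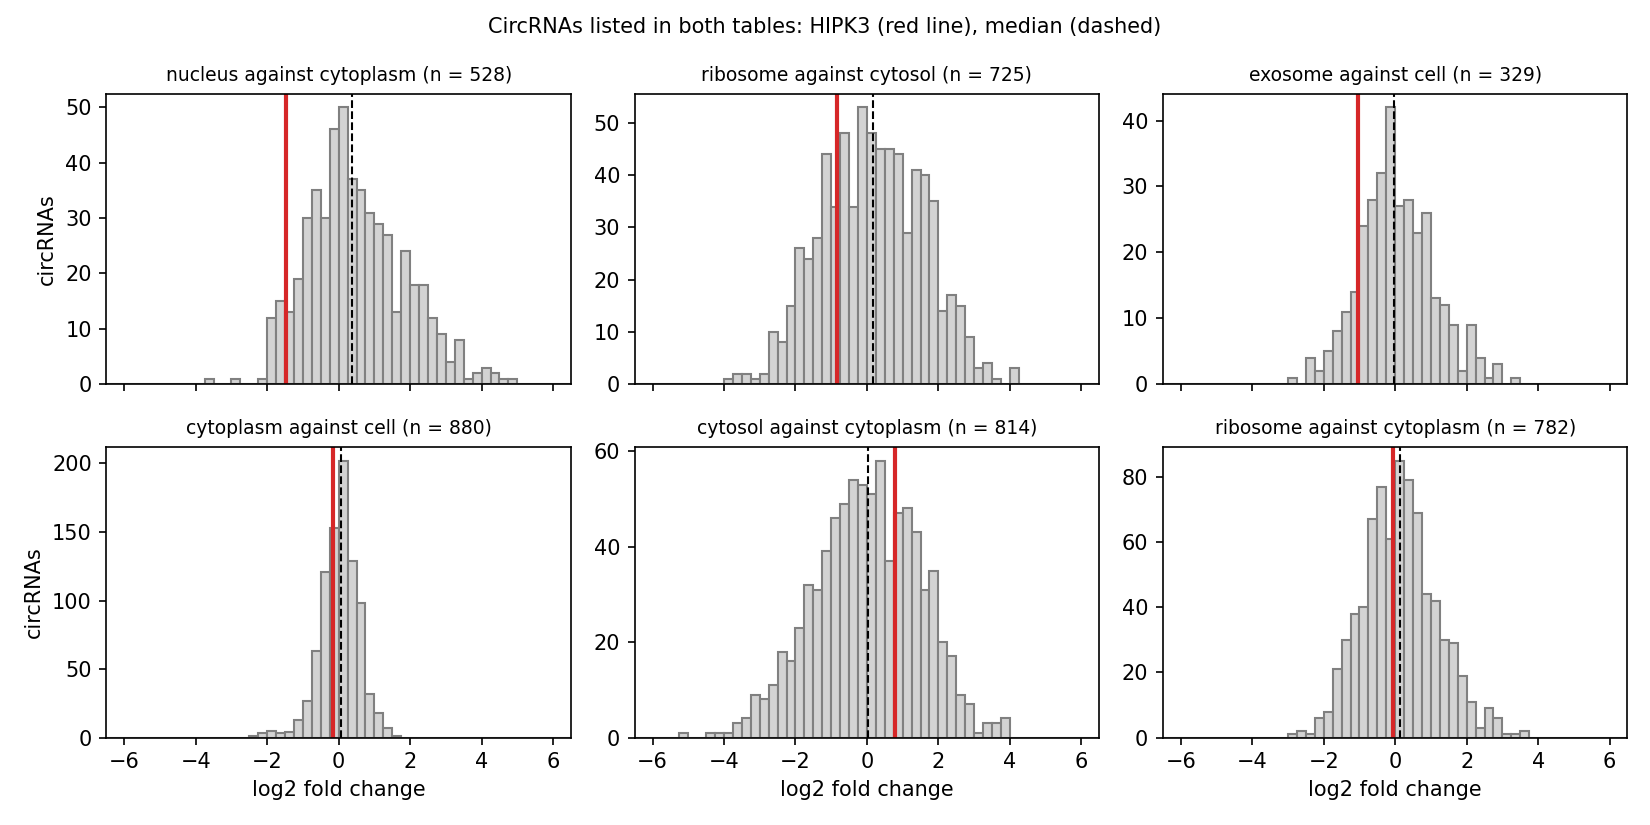
Log2 fold changes with TMM of the tested circRNAs that both tables of a comparison list (grey bars, 0.25 wide), with the HIPK3 circRNA as a red line and the median dashed. HIPK3 sits left of most circRNAs for nucleus against cytoplasm, where 30 of 528 are lower, and right of the median for cytosol against cytoplasm. CircRNAs too low to be listed in the nucleus are left out of the 528, and the median there over all 950 tested is −0.76.

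**Figure D4:**
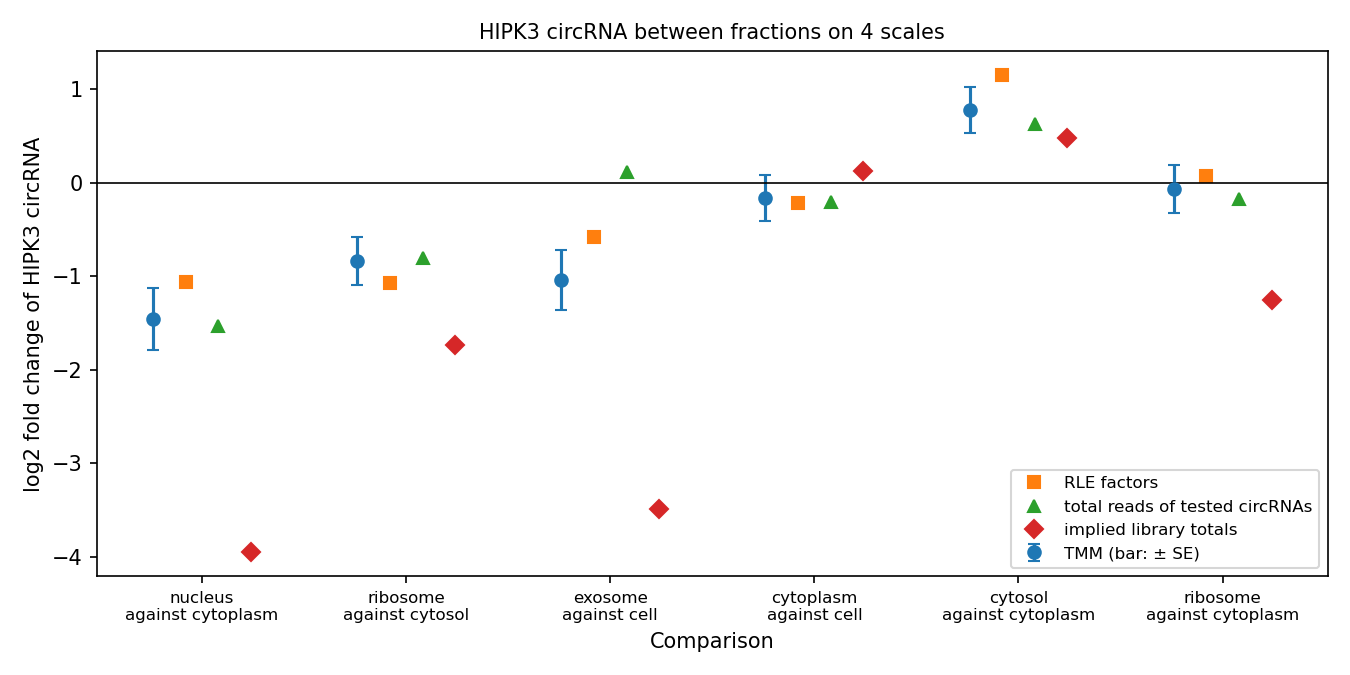
Log2 fold change of the HIPK3 circRNA in the 6 comparisons on 4 scales, with ± SE bars for TMM. All 4 scales put it below 0 for nucleus against cytoplasm and ribosome against cytosol and above 0 for cytosol against cytoplasm, while exosome against cell runs from −3.49 to 0.12.

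The kinase paralogues of HIPK3 gave circRNAs of nearly the same span. HIPK2, a kinase known for phosphorylating p53, gave a circRNA at chr7:139715932-139717015 that spans 1084 bases, and HIPK1 gave one at chr1:113940382-113941459 that spans 1078 bases. The HIPK2 circRNA had 174 reads over the 12 libraries, the HIPK1 circRNA had 8, and HIPK4 gave none, beside 2076 for HIPK3. A second HIPK2 entry shared the lower genomic coordinate of the first and reached much farther, over 39328 bases, with 5 and 2 reads in the cytosol. The strand of HIPK2 was not read here, so whether this pair matches that of HIPK3 was not tested. Whether all 3 rings come from corresponding exons was not tested, because exon annotation was not used here.

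The HIPK2 circRNA had 3.10 and 1.84 RPTM in ribosome libraries, 4.03 and 3.36 in cytosol libraries, 2.03 and 1.92 in the cytoplasm and 1.71 and 0.779 in cells, and it was unlisted in the nucleus and in exosomes. On the RPTM scale it was highest in the cytosol, like HIPK3, though each of its values rests on 6 to 38 reads. It rose in the cytosol relative to the cytoplasm by 1.17 ± 0.38 on the log2 scale (SE, edgeR adjusted p = 0.00879), and in the ribosome fraction relative to the cytoplasm by 1.51 ± 0.40 (edgeR adjusted p = 0.00447). Both HIPK2 calls were lost with implied library totals as the scale, at adjusted p = 0.0611 and 0.508, and with DESeq2, at 0.0694 and 0.116. The first was also lost without cytoplasm replicate 2 (edgeR adjusted p = 0.0622), and the second without ribosome replicate 1 (edgeR adjusted p = 0.196).

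Between ribosome and cytosol the HIPK2 circRNA stood at 0.34 ± 0.37 and did not pass (edgeR adjusted p = 0.473), a direction that reversed with implied library totals. The HIPK3 circRNA had 5.0 times the HIPK2 level in ribosome libraries, 11.1 times in the cytosol, 14.9 times in the cytoplasm and 21.6 times in cells. These ratios were 3.63 and 7.31 in the ribosome libraries and 16.6 and 32.7 in the cell libraries. A test of the difference between the 2 genes was not run.

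**Figure D5:**
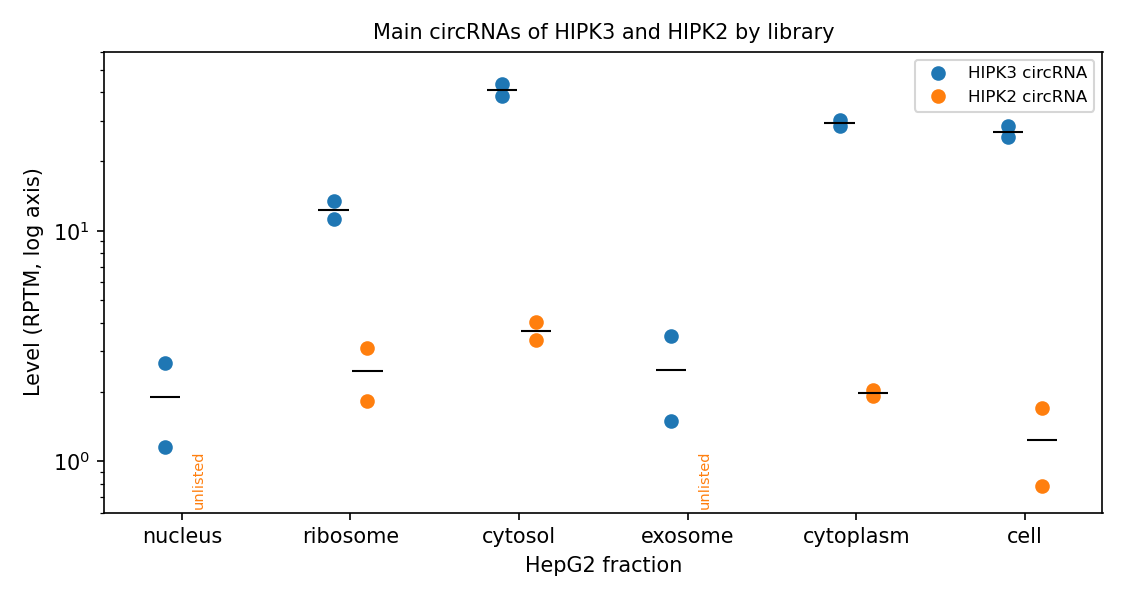
Levels of the main circRNAs of HIPK3 (blue) and HIPK2 (orange) in each library, in RPTM on a log axis, with means as black lines. On this scale both are highest in the cytosol, at 40.9 and 3.69 RPTM, and HIPK2 is unlisted in nucleus and exosomes.

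HIPK3 belongs to the CMGC group of kinases, with the cyclin-dependent, mitogen-activated, CDC-like and DYRK kinases. Of 59 other CMGC genes, 22 gave a listed circRNA and 8 had one in the tested set. In the cytosol relative to the cytoplasm, 4 of these 8 rose, HIPK2 among them, 1 fell and 3 did not pass, with a median of 0.93 against −0.13 over all 950, of which 26.9% were called higher and 30.9% lower. In the ribosome fraction relative to the cytosol 3 fell, none rose and 5 did not pass, with a median of −1.19 against 0 over all, of which 26.1% were called lower. In the nucleus relative to the cytoplasm 4 were called lower, none of them listed in the nucleus, and 4 did not pass, beside 33.3% lower over all. In exosomes against cells none was called higher and 2 lower, both unlisted in exosomes, beside 42.0% lower over all. None was called between cytoplasm and cell, and 1 rose and 1 fell in the ribosome fraction relative to the cytoplasm, beside 14.5% higher and 18.5% lower over all. Besides HIPK2, the circRNAs with the most reads were those of CDK13, a kinase of the RNA polymerase tail, at −0.45 ± 0.33 in the cytosol relative to the cytoplasm (SE, edgeR adjusted p = 0.258), and of DYRK1A at 0.69 ± 0.45 (edgeR adjusted p = 0.191). The DYRK1A value hung on single libraries, with 2.17 and a call without cytoplasm replicate 1 (edgeR adjusted p = 0.00245) and 0.0073 without cytoplasm replicate 2, and it was also called with RLE factors and with at least 5 reads in 2 libraries.

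Among 62 other hosts of widely reported circRNAs, 45 had a tested circRNA. In the cytosol relative to the cytoplasm 17 rose, 14 fell and 14 did not pass, with a median of 0.04, beside 26.9% higher and 30.9% lower over all tested circRNAs. The 3 circRNAs with the most reads are given by rule. That of FAT1, a cadherin gene, stood at −1.87 ± 0.24 (SE, edgeR adjusted p = 9.6e-08), that of ASPH, a hydroxylase gene, at −1.82 ± 0.25 (edgeR adjusted p = 3.1e-07) and that of XPO1, the nuclear export receptor gene, at 0.51 ± 0.24 (edgeR adjusted p = 0.0686). The XPO1 circRNA was called higher with RLE factors, with DESeq2, with at least 5 reads in 2 libraries, with unlisted circRNAs at 1 read and without cytosol replicate 1 (edgeR adjusted p = 0.0273). In the nucleus relative to the cytoplasm 4 of the 45 rose and 17 fell, of which 8 were unlisted in the nucleus, beside 14.9% higher and 33.3% lower over all. In the ribosome fraction relative to the cytosol 13 rose and 13 fell, 1 of them unlisted in the ribosome table, beside 26.6% and 26.1%. In exosomes against cells 0 rose and 19 fell, 11 of them unlisted in exosomes, beside 38 of 950 higher and 42.0% lower over all. Between cytoplasm and cell 0 rose and 1 fell, beside 1.58% and 2.21%, and in the ribosome fraction relative to the cytoplasm 10 rose and 9 fell, 1 of them unlisted in the ribosome table, beside 14.5% and 18.5%.

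Of 19 genes near HIPK3 on chromosome 11, 6 gave a circRNA and 2 had one in the tested set. In the cytosol relative to the cytoplasm, the circRNA of QSER1 (32927157 to 32935435) rose by 1.15 ± 0.37 (SE, edgeR adjusted p = 0.00788) and that of CAPRIN1, a gene of an RNA granule protein (34090179 to 34092056), by 3.84 ± 0.49 (edgeR adjusted p = 1.3e-07). The QSER1 call was lost with implied library totals as the scale (edgeR adjusted p = 0.0561) and without cytoplasm replicate 2 (edgeR adjusted p = 0.136). Over all tested circRNAs 26.9% were called higher there. In the ribosome fraction relative to the cytosol 1 of the 2 fell, beside 26.1% over all. In exosomes against cells the CAPRIN1 circRNA, unlisted in the cell table, was called higher, beside 38 of 950 over all, and in the ribosome fraction relative to the cytoplasm 1 was called higher, beside 14.5%. Neither was called between nucleus and cytoplasm or between cytoplasm and cell.

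The circRNAs whose levels ran most like those of HIPK3 were found by Pearson correlation of log2(RPTM + 0.5) over the 12 libraries, among 167 other circRNAs listed in all tables. The circRNA of METTL3, which encodes an enzyme that methylates adenosines in mRNA (chromosome 14, 21503173 to 21503881), had r = 0.98, and that of SPECC1 (chromosome 17, 20204333 to 20205912) had 0.97. Those of TMEM181 (chromosome 6, 158580940 to 158589782), SMARCA5, a chromatin remodeller gene (chromosome 4, 143543509 to 143543972), and ASH1L, a histone methyltransferase gene (chromosome 1, 155438327 to 155459898), followed with 0.97, 0.97 and 0.96. All values share library totals, and the median r over the 167 was 0.84, so these are descriptions of a course that many circRNAs had. On shares of circRNA reads, the most alike circRNA was that of MAN1A2 (r = 0.91), METTL3 and SPECC1 were at positions 2 and 3 of 167 with 0.85 and 0.85, and SMARCA5, TMEM181 and ASH1L dropped to positions 26, 35 and 43.

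Both of the most alike circRNAs were less abundant than that of HIPK3. The METTL3 circRNA averaged 0.305 RPTM in the nucleus, 2.48 in ribosome libraries, 5.65 in the cytosol, 0.278 in exosomes, 5.76 in the cytoplasm and 3.92 in cells. Its means in the nucleus and in exosomes lie below the 0.5 added before the logarithm. The SPECC1 circRNA averaged 0.490, 3.75, 7.82, 0.530, 9.34 and 7.17 RPTM in the same order of fractions, and its nuclear mean also lies below 0.5. Unlike HIPK3, neither circRNA was called in the cytosol relative to the cytoplasm (0.26 and 0.04, edgeR adjusted p = 0.475 and 0.936). Nor was either called in the ribosome fraction relative to the cytosol (−0.28 and −0.15, edgeR adjusted p = 0.499 and 0.739). Like HIPK3 with TMM, both were called lower in the nucleus relative to the cytoplasm (−1.72 and −1.76, edgeR adjusted p = 0.0132 and 0.00550). Both were also called lower in exosomes relative to cells (−1.50 and −1.38, edgeR adjusted p = 0.0482 and 0.0306). These calls rest on low levels in the nucleus and in exosomes and were not tried on other scales.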

How the data were processed

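The deposited tables, 1 for each of 6 fractions, hold whole-number counts of back-splice reads per circRNA and library from 2 callers, CIRC and Ciri, per the file headers. The authors also deposited RPTM values, a score read here as reads per 10000000 library reads, for either caller and averaged. Solving RPTM against counts gave the implied library totals. The build is hg38 by the submitters' processing notes. Aligner, caller versions and filters are not given in the sources used here.

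Tables were joined on chromosome, start and end. Reads were averaged over the callers that list a circRNA and rounded, and unlisted circRNAs entered as 0. Hosts came from the RefSeq table of assembly GRCh38.p14 (10950 circRNAs had a host), without strand. Of 4679 circRNAs with an entry by both callers in the same table, 950 passed filterByExpr (minimum count 10). They were tested with edgeR 4.0.16 in R 4.3.3, 1 coefficient per fraction, checked on simulated counts. The SE is the absolute log2 fold change over the square root of F. Named genes were the HIPK3 entries, up to 3 hosts per list by reads and the 5 most alike circRNAs. HIPK3, the lists and the comparisons were chosen with earlier results of these data known. Alternatives were other scales, filters, callers, sets, DESeq2 1.42.0, left-out libraries and a replicate block. The sequence of the circRNA was not used here. Values of some list members are not reported here.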

Additional observations from a re-analysis of the deposited data

How the results depend on the processing

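The HIPK3 circRNA kept direction and call for nucleus against cytoplasm and ribosome against cytosol under 14 of 14 alternatives. Without each library in turn the direction held (log2 −2.62 to −1.50 and −1.67 to −1.05). These decreases were all larger than the main ones of −1.46 and −0.84. Every fit without a library was filtered and scaled anew, so such ranges do not show the effect of single libraries alone. For cytosol against cytoplasm the log2 fold change was 0.48 with implied library totals and 0.51 with only the 2 fractions in the fit, neither called, and 0.70 to 0.91 without single libraries, not called without cytoplasm replicate 1. For exosome against cell it was −0.58 with RLE factors, −0.58 with DESeq2 and −0.36 with unlisted circRNAs at 1 read, none called, 0.12 with total circRNA reads, and −1.67 to −1.14 without single libraries. For cytoplasm against cell it turned to 0.12 with implied totals. For ribosome against cytoplasm it was 0.071 with RLE factors, 0.070 with DESeq2, −1.25 with implied totals and −0.51 to 0.020 without single libraries, above 0 without ribosome replicate 1. The cause was not tested. HIPK2 in ribosome against cytosol turned to −0.55 with implied totals, −0.23 with at least 5 reads in 2 libraries, −0.22 among circRNAs listed in both tables, and −0.54 to 0.12 without single libraries. The XPO1 and DYRK1A circRNAs, not called for cytosol against cytoplasm, were called with 5 and 3 alternatives or left-out libraries. A check for pairing by replicate number gave r −0.062 to 0.083 over 15 pairs of fractions. Counting error and unlisted circRNAs entered as 0 can hold r near 0, so this check cannot decide whether libraries were paired. With a replicate block HIPK3 stood at −1.47 (nucleus against cytoplasm), −0.84 (ribosome against cytosol), −1.04 (exosome against cell) and −0.17 (cytoplasm against cell). It stood at 0.76 (cytosol against cytoplasm) and −0.08 (ribosome against cytoplasm) in the last 2 comparisons. Counts of calls moved more: in the same order of comparisons 458, 501, 437, 36, 550 and 314 became 94 to 829, 262 to 1832, 23 to 852, 0 to 1206, 273 to 2776 and 117 to 1560. The settings differ in the number of circRNAs tested, so these counts are not of 1 set. The main counts are of 950, while 829, 1832, 1206, 2776 and 1560 came without a filter on the 4679 circRNAs. The 0 is edgeR among 911 circRNAs listed in both tables, where 60 had an unadjusted p under 0.05, and DESeq2 on the 950 tested called 5. Depth limits the nuclear and exosomal values, at 10 to 23 reads. The listing alternatives (both tables, a caller in some table) and the likeness scales were chosen after seeing the data.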
